A study of Homo sapiens with 12 samples.

Results

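The effect of lapatinib on a pooled knockout library was compared between 2 cancer cell lines with amplified HER2. For each sgRNA, the change with lapatinib in OE19 was set against the change with lapatinib in N87, a difference of differences over 8 of the 12 libraries of the screen. N87 was derived from a gastric carcinoma, and OE19 from an adenocarcinoma at the junction of oesophagus and stomach. Both carried the GeCKO v2 library, in which a lentivirus delivers Cas9 with 1 guide RNA per cell at low multiplicity, and both were selected with puromycin. The 4 groups were N87 with vehicle (DMSO), N87 with 0.5 µM lapatinib, OE19 with vehicle and OE19 with 1 µM lapatinib, each for 14 days in 2 replicates from separate infections. The dose differed between the lines, so line and dose cannot be told apart in any value below. The 4 baseline libraries were not used. Of 123411 sgRNA entries, 122145 had at least 80 counts over the 8 libraries and were tested, among them all 2000 entries of control guides, which target no gene. At least 2 tested sgRNAs were left for 20889 of 20915 gene names. Guide counts do not show expression, so the identity of the lines was not checked here.

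HER2 (gene name ERBB2) is a receptor tyrosine kinase that drives growth through the Ras and PI3K pathways, and amplified tumours depend on it. Lapatinib blocks the kinase activity of HER2 and of EGFR. In such a screen a guide becomes more frequent under drug when loss of its gene helps cells to survive or divide, and rarer when loss of its gene is harmful under drug. A positive difference between the lines can therefore come from enrichment in OE19, from depletion in N87, or from both. Both effects are given for the genes that passed the test of the difference. Where a difference alone is printed, it does not say which line it came from.

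Across the library the effects in the 2 lines showed no correlation. Pearson's r between the gene medians of OE19 and N87 was -0.002 and Spearman's rho -0.009 over 20889 genes, given as a description because genes are not replicates. Gene medians had an SD of 0.31 on the log2 scale in OE19 and 0.72 in N87. A log2 fold change over 1 was the gene median of 90 genes in OE19 (0.431% of those tested) and of 1031 in N87 (4.936%). In both sets were 11 genes (0.053%). Among these 11 were CSK, BAX, LATS2, NF2, TADA1, TADA2B, TADA3 and TAF5L. A median under -1 was found for 28 genes in OE19 (0.134%) and for 2516 in N87 (12.045%). In both were 6 genes (0.029%), of which 5 are microRNAs. Neither overlap was tested.

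The control guides varied more in N87 as well. The SD of their log2 fold change was 1.03 in N87 and 0.63 in OE19. Their change had r = 0.892 between replicates 1 and 2 in N87 and r = 0.591 in OE19. For gene-targeting sgRNAs r was 0.879 and 0.517. Replicates thus shared changes in guides without a target. The spread between replicates, on which the sgRNA p-values rest, does not measure such shared changes. Their source was not tested. The sgRNA test called 20.7% of all sgRNAs higher in OE19 than in N87 and 20.5% lower, and it called 36.2% of the control guides in one direction or the other. Within each line, 3.52% of sgRNAs passed as higher with lapatinib and 0.35% as lower in OE19, against 28.8% and 29.9% in N87. Of the control guides 2.6% passed in OE19 and 50.2% in N87, so a call of a single sgRNA is close to the background set by guides without a target. Genes were therefore scored over all of their sgRNAs. Control guides had a median difference of -0.32 and gene-targeting sgRNAs one of 0.14 on the log2 scale. Total counts ran from 24570332 to 26981640 in N87 and from 13105805 to 28801106 in OE19, both OE19 lapatinib libraries being below both vehicle libraries.

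At gene level 4 of 20889 genes (0.0191%) had a higher effect in OE19 than in N87, and 0 genes had a lower one. The 4 genes are KEAP1, SMAD3, SYS1 and SH2D3A. These counts are from robust rank aggregation of the one-sided edgeR p-values with Benjamini-Hochberg adjustment at 0.05. At an unadjusted p under 0.05, 1084 genes were higher and 1073 lower. DESeq2 p-values called 9 genes higher and 0 lower. Gene values below are medians over sgRNAs of the fitted log2 value, with the SD over sgRNAs. The median difference need not equal the difference of the medians of both lines. Counts per library are medians over the sgRNAs of a gene after scaling by median-of-ratios size factors.

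KEAP1, the adaptor through which a CUL3 ubiquitin ligase marks the oxidative stress factor Nrf2 for degradation, had the lowest p of all genes. Its position in GRCh37, the build of all coordinates here, is 10596801 to 10614234 on chromosome 19. In OE19 the vehicle libraries had a median count over its 6 sgRNAs of 168 in replicate 1 and 151 in replicate 2, and the lapatinib libraries had 8428 and 5908. In N87 the vehicle libraries had 149 and 126, and the lapatinib libraries 409 and 457. All 4 vehicle libraries were alike, both lines were higher with lapatinib, and both OE19 lapatinib libraries were far above both N87 lapatinib libraries. OE19 had a median log2 fold change of 5.80 with an SD of 1.58 over the sgRNAs, and N87 one of 0.96 ± 1.58. The difference was 4.30 ± 1.24, positive for 6 of 6 sgRNAs and 4.92 and 3.79 in replicates 1 and 2, with an adjusted p of 5.91e-05 by rank aggregation of edgeR p-values. All 6 sgRNAs passed the sgRNA test as higher, against 20.7% of all sgRNAs. The gene p is built from these same sgRNA p-values, so this is no further support.

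SMAD3, the receptor-activated transcription factor of TGF-beta signalling, had medians of opposite sign, of which only that in OE19 passed. The N87 median lay within the SD of gene medians there (0.72). It lies on chromosome 15 from 67356101 to 67487511. In OE19 the median count was 119 and 153 in the vehicle libraries and 884 and 486 under lapatinib, and in N87 it was 169 and 165, then 115 and 120. The OE19 lapatinib libraries were above all others, and the N87 lapatinib libraries were below the N87 vehicle libraries. The median log2 fold change was 2.27 ± 1.13 in OE19, where SMAD3 also passed alone (adjusted p = 0.00501, edgeR and rank aggregation), and -0.54 ± 0.48 in N87, where it did not. The difference was 2.46 ± 1.40, with 3.00 and 1.84 in replicates 1 and 2 and an adjusted p of 0.0355 by the same test. It was positive for 5 of 6 sgRNAs, and these 5 passed as higher on their own, against 20.7% of all sgRNAs. The remaining SMAD3 sgRNA had a difference of -0.21 (adjusted p = 0.630 by edgeR).

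SYS1 differed through N87. It encodes a Golgi membrane protein that brings the GTPase ARFRP1 to the trans-Golgi, and it lies on chromosome 20 from 43990577 to 44005438. In N87 the median count was 209.9 and 144 in the vehicle libraries and 20.9 and 38.8 under lapatinib. In OE19 it was 245 and 246, then 201 and 206. The N87 lapatinib libraries were lower than the 6 others, which were between 144 and 246. The median log2 fold change was -2.38 ± 1.12 in N87 and -0.01 ± 0.32 in OE19. SYS1 was the 1 gene of 20889 (0.00479%) that passed as depleted in N87 alone, with an adjusted p of 0.00412 by rank aggregation of edgeR p-values. The difference was 2.31 ± 0.87, positive for 6 of 6 sgRNAs and 2.69 and 1.57 in the replicates, with an adjusted p of 0.0355 by the same test.

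SH2D3A, an SH2-domain adaptor of the family that also holds BCAR3, had the same pattern. It lies on chromosome 19 from 6752171 to 6767474. In N87 the median count was 135 and 146 in the vehicle libraries and 26.2 and 51.7 under lapatinib, and in OE19 it was 156 and 139, then 201 and 175. Only the N87 lapatinib libraries were low. The median log2 fold change was -1.98 ± 1.43 in N87 (adjusted p = 0.405 for depletion, edgeR and rank aggregation) and 0.44 ± 0.70 in OE19. The difference was 2.44 ± 1.78, positive for 5 of 6 sgRNAs and 2.86 and 1.94 in the replicates, with an adjusted p of 0.0355 by the same test.

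These 4 calls depended on single libraries. KEAP1 kept its call without either OE19 lapatinib replicate and without N87 vehicle replicate 2, and lost it without OE19 vehicle replicate 1 (adjusted p = 0.153) or 2 (0.217), N87 lapatinib replicate 1 (0.0826) or 2 (0.837), or N87 vehicle replicate 1 (0.176), all by edgeR and rank aggregation. SMAD3 kept it without OE19 lapatinib replicate 1 and without OE19 vehicle replicate 2, and otherwise had an adjusted p from 0.0683 to 0.530. SYS1 kept it without OE19 lapatinib replicate 1 and without N87 vehicle replicate 2, and otherwise had 0.172 to 0.556. SH2D3A lost it without any single library, with 0.0826 to 0.733. No gene passed with a replicate block, where KEAP1 and SMAD3 both had an adjusted p of 0.0709, SH2D3A 0.178 and SYS1 0.252. The size of the difference changed less: without any single library it was 3.89 to 5.04 for KEAP1, 2.24 to 2.81 for SMAD3, 1.99 to 2.75 for SYS1 and 2.13 to 2.88 for SH2D3A. In a limma fit of gene means over the 8 libraries, KEAP1 differed by 4.06 ± 0.23 (SE), SMAD3 by 2.28 ± 0.22, SH2D3A by 2.20 ± 0.27 and SYS1 by 1.59 ± 0.35. That fit called 34.1% of all genes and 32.2% of olfactory receptor genes, so a call in it says little about a gene.

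CSK, the kinase that holds Src family kinases inactive by phosphorylating their tail, had the largest median difference of all genes. It passed as enriched in OE19 (adjusted p = 0.00032, edgeR and rank aggregation) and did not pass the gene test of the difference. It lies on chromosome 15 from 75074421 to 75095538. In OE19 the vehicle libraries had a median count over its 6 sgRNAs of 132 and 150.2, and the lapatinib libraries 341100 and 143000. In N87 they had 198 and 209.7, then 737 and 1534. Both lines were higher with lapatinib in both replicates, and the groups did not overlap. The 6 sgRNAs of CSK held 7.21% and 4.01% of all counts in the OE19 lapatinib libraries, against 0.0154% and 0.0410% in the N87 lapatinib libraries. The median log2 fold change was 10.83 ± 0.63 in OE19, the highest of all genes there, and 2.56 ± 0.54 in N87, the third highest there. The difference was 7.88 ± 0.35, positive for 6 of 6 sgRNAs and 9.34 and 6.58 in replicates 1 and 2.

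The call on CSK depended on how the spread was estimated. Its gene p was 1, because none of its sgRNAs ranked among the lowest 5% of one-sided edgeR p-values, although their adjusted p-values ran from 0.0262 to 0.0788 and 3 of 6 passed. The quasi-dispersion that edgeR took from the trend over abundance was 21.8 to 40.8 for the CSK sgRNAs. The value from their own replicates was 1.48 to 4.43. Without that trend the adjusted p of CSK was 9.68e-14, with DESeq2 p-values 8.49e-13, and in the limma fit of gene means 1.31e-06, with a difference of 7.99 ± 0.63 (SE). CSK also passed with total-count scaling (0.000216, edgeR and rank aggregation). It passed as well with sgRNAs ranked by log2 difference (1.23e-14, rank aggregation). It did not pass with median-of-ratios factors, TMM factors from the control guides, another filter on counts or the replicate block. Without any single library its difference was 7.1 to 8.87.

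SRC, the best known kinase under the control of CSK, had a median log2 fold change of -1.08 in OE19 and 0.19 in N87. Its difference was -0.91 ± 2.25, positive for 2 of 6 sgRNAs, and it passed in neither line (adjusted p = 0.167 for depletion in OE19). Among 22 Src family and restraint genes, 13 had a positive median difference (59.1%, against 58.0% of all genes tested), and the list median was 0.16, against 0.15 for all genes. CSK and SH2D3A were its 2 members above 1, while SH2D3C, a relative of SH2D3A, had -1.62. YES1, a close relative of SRC, had -0.67, and LYN and FYN had -0.25 and -0.15.

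In OE19 alone 14 genes (0.067%) passed as enriched, and 0 in N87. The adjusted p in OE19 was 5.11e-08 for KEAP1 and SLC30A1, 1.96e-07 for BAX and 2.48e-05 for TGFBR2 (edgeR and rank aggregation). By the same test it was 0.00032 for CSK and 0.00088 for NF1. A pass in one line only does not show that the lines differ. Of the 14 genes, 13 had a positive median difference, against 58.0% of all genes tested. The 14 were picked for high values in OE19, from which N87 is subtracted, so that count was largely set by the choice. A positive median in N87 was found for 11 of the 14, against 9191 of all 20889 genes. Neither count was tested. Of the 14 genes, 2 (KEAP1 and SMAD3) passed the test of the difference. The others named here fall into those with a median difference over 1, which did not pass, and those with one under 1. Without OE19 lapatinib replicate 2, 9 genes passed in OE19.

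BAX, a pore-forming protein of the mitochondrial death pathway, is in the first set. Its median count in OE19 was 206 and 193 in the vehicle libraries and 3762 and 2042 under lapatinib, and in N87 it was 229 and 279, then 697 and 1076. Lapatinib libraries were thus above vehicle libraries in each line, by a larger factor in OE19. The difference was 2.36 ± 0.85, positive for 6 of 6 sgRNAs, with an adjusted p of 0.734 by rank aggregation of edgeR p-values. Of these sgRNAs 5 passed as higher on their own, against 20.7% of all sgRNAs. BAX passed with DESeq2 p-values (0.00124), without the dispersion trend (0.0236) and with total-count scaling (0.00388). It did not pass with median-of-ratios factors (0.741), TMM factors from the control guides (0.743) or the replicate block (0.905). These are all from rank aggregation. BAX also did not pass with sgRNAs ranked by log2 difference. Without any single library its difference was 1.79 to 2.76.

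SLC30A1, the zinc exporter of the cell membrane, had vehicle counts of 134 and 128 and lapatinib counts of 927 and 614 in OE19. In N87 it had 148 and 147, then 163 and 207. The N87 groups were close, and the OE19 lapatinib libraries stood apart. Its difference was 2.05 ± 1.22 with an adjusted p of 0.207. TGFBR2, the ligand-binding TGF-beta receptor, had vehicle counts of 161 and 136 and lapatinib counts of 806 and 466 in OE19, and 143 and 136, then 225 and 198 in N87. Its difference was 1.65 ± 1.89 with the same adjusted p of 0.207. NF1, which switches Ras off, had vehicle counts of 257 and 225 and lapatinib counts of 2470 and 1169 in OE19, and 264 and 264, then 392 and 408 in N87. Its difference was 1.41 ± 2.24 with an adjusted p of 0.473, the sgRNAs ranging widely, and 4 of 6 were positive. FBXL20, an F-box protein, differed by 2.15 ± 2.33 (0.279), with 1.41 in OE19 and -0.01 in N87. TEFM, a mitochondrial transcription elongation factor, differed by 1.11 ± 2.03 (0.920), with 1.44 in OE19 and -0.08 in N87. FBXL20 lies on chromosome 17 from 37408916 to 37558776 and was in no gene list below. TEFM lies on the same chromosome from 29224354 to 29233256, near NF1 at 29421945 to 29709134. Any part of position was not tested. All these p-values are from edgeR and rank aggregation.

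LATS2, MED12, TADA2B and TADA3 are in the second set. LATS2, a Hippo kinase that restrains YAP1, had a median log2 fold change of 1.18 ± 0.84 in OE19 and 1.69 ± 1.68 in N87, and a difference of -0.09. Its sign turned with TMM factors from the control guides, where it was 0.29. MED12, of the Mediator kinase module, had 1.18 in OE19 and 0.83 in N87, with a difference of 0.15. TADA2B and TADA3, subunits of the SAGA coactivator, had 1.54 and 1.52 in OE19 and 1.56 and 1.18 in N87. Their differences were 0.45 ± 1.96 and 0.71 ± 1.63. The SD over sgRNAs was larger than the difference in each of these 4 genes, which does not show that both lines respond alike.

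No gene passed as lower in OE19 than in N87, where the 5 genes of lowest p all had an adjusted p of 0.655. IDUA, a lysosomal enzyme that degrades glycosaminoglycans, had vehicle counts of 173 and 159 and lapatinib counts of 689.9 and 467 in N87, and 142 and 166, then 229 and 186 in OE19. Its difference was -2.38 ± 1.43 and negative for 6 of 6 sgRNAs. WDR88 had -2.05 ± 1.50, ILKAP, a phosphatase that acts on ILK, had -1.79 ± 2.29, NMRK1, a nicotinamide riboside kinase, had -1.42 ± 2.28, and the B-cell cytokine TNFSF13B had -0.33 ± 2.84. For TNFSF13B 2 of 6 sgRNAs passed as lower on their own, against 20.5% of all sgRNAs. The TNFSF13B median was 0.05 with TMM factors from the control guides.

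TADA1, a SAGA subunit, had the second highest median of all genes in N87 and the 13th highest in OE19. Its median count in N87 was 228 and 178 in the vehicle libraries and 2069 and 1757 under lapatinib, and in OE19 it was 182 and 228, then 733 and 463. Both lines were higher with lapatinib, N87 by more. The difference was -1.48 ± 1.31, negative for 4 of 6 sgRNAs and -0.98 and -2.17 in the replicates, and it did not pass (adjusted p = 1). KCTD5, a CUL3 adaptor that acts on G protein beta gamma subunits, had vehicle counts of 192 and 273 and lapatinib counts of 1263 and 1321 in N87, and 149 and 171, then 400.2 and 412 in OE19. Its difference was -0.24 ± 1.79 (adjusted p = 0.963). The gene listed as PRR24, whose current symbol is INAFM1, had 131 and 120, then 711 and 605 in N87, and 93.5 and 111, then 163 and 126 in OE19. Its difference was -1.41 ± 1.50 and negative for 6 of 6 sgRNAs, with an adjusted p of 0.988 by edgeR and rank aggregation. Of these sgRNAs 5 passed as lower on their own, against 20.5% of all sgRNAs.

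Before gene groups are compared, one property of the pool has to be given. The difference between the lines moved with how abundant a guide was with vehicle. The tested sgRNAs were put in 4 equal sets by their mean level in the vehicle libraries. In the lowest set, with a median normalized count of 46.9, the median difference was 0.81, from a median of -0.01 in OE19 and -0.90 in N87. In the following sets, at 99.1, 156.6 and 259.1, it was 0.22, 0.00 and -0.16. Vehicle counts are also the denominator of both fold changes. Guides against genes that the cells need without drug are rare with vehicle, and such lists are given with their vehicle level. The part of abundance in any list's value was not tested.

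The ERBB2 neighbours on 17q12-q21, genes that lie beside ERBB2 and are commonly amplified with it, had the largest list median when rare guides were kept. Of 24 genes 21 (87.5%) had a positive difference, against 58.0% of all genes tested, and the list median was 1.30, against 0.15. None of the 24 passed the gene test, and 37.3% of their sgRNAs passed as higher, against 20.9% of all gene-targeting sgRNAs. The list median by line was 0.31 in OE19 and -1.01 in N87, against 0.00 and -0.10 for all genes. In replicates 1 and 2 the list median was 1.48 and 0.68, against 0.08 and 0.04 for all genes. MIEN1 had 1.54 in OE19 and -1.33 in N87, with a difference of 3.35 ± 2.24. PGAP3, a lipid remodeller of GPI anchors, had a difference of 2.88 ± 2.04, ERBB2 itself one of 1.73 ± 1.28 (0.97 in OE19 and -0.30 in N87), and the adaptor GRB7 one of 1.61. MED1, at the edge of the region, had -0.43. CSF3 and NEUROD2, a cytokine and a neuronal factor, had 2.58 and 1.48. The sgRNAs of this list had a median count of 73.0 with vehicle, against 125.7 for all sgRNAs. With at least 20 counts required in each vehicle library, the list lay 0.78 above all genes instead of 1.15, and the histone acetyltransferases and BET readers lay higher, at 0.97.

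Of 22 genes of the EGFR family and forward Ras signalling, 14 had a positive difference (63.6%, against 58.0% of all genes), and 0 passed. The list median was 0.51, from -0.02 in OE19 and -0.34 in N87, against 0.00 and -0.10 for all genes. These guides had a median count of 101.2 with vehicle, against 125.7 for all sgRNAs. PTPN11, the phosphatase SHP2 that carries receptor signals to Ras, had a difference of 2.55 ± 2.70, from 0.09 in OE19 and -2.73 in N87, with 6 of 6 sgRNAs positive. GRB2, the adaptor that recruits SOS proteins, had 1.68 ± 2.37, and SOS2, a Ras exchange factor, had 1.38. ERBB3, the partner of HER2, went the other way at -1.02, and SHC1 had -0.86. EGFR had -0.14. Genes that hold Ras and MAPK signalling back were evenly split, with 12 of 24 positive and a median of 0.02. Besides NF1, RASA2, a GTPase-activating protein for Ras, had -2.05 ± 0.88 (-0.18 in OE19 and 1.96 in N87) with 0 of 6 sgRNAs positive and an adjusted p of 0.655 for the lower side. SPRED1, which works with NF1, had -1.16. NF1 and RASA2 thus had their high values in different lines.

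Genes that take receptors off the membrane had a list median of -0.47, with 5 of 14 positive (35.7%), from -0.04 in OE19 and 0.44 in N87. Their guides had a vehicle count of 106.2, against 125.7 for all sgRNAs. STAM2 and STAM, which sort ubiquitylated receptors, had -1.17 and -1.03, with 1.97 and 1.29 in N87. LRIG3, a relative of the receptor inhibitor LRIG1, had -1.91 with 0 of 6 sgRNAs positive. ERRFI1, an inhibitor of EGFR family kinases, had -0.98, and CBLB, a ubiquitin ligase for receptors, had -0.89. None passed. Relative to all genes the list lay 0.62 lower, and 0.33 lower when sgRNAs with under 20 counts in a vehicle library were left out. It was the lowest list median without that filter, and with it the G1 genes lay lower, at 0.49 below all genes.

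Of 19 genes of the mTOR complexes and their forward signalling 13 had a positive difference (68.4%, against 58.0% of all genes), 0 passed, and the median was 0.62. It was 0.31 and 0.07 in replicates 1 and 2, against 0.08 and 0.04 for all genes. These guides had a vehicle count of 90.9, and with the filter on vehicle counts the excess over all genes went from 0.47 to 0.22. RHEB, the GTPase that activates mTOR, had 1.20, RPTOR 1.13 and the Ragulator subunit LAMTOR1 1.72, with N87 medians of -1.34, -1.51 and -0.73. PDPK1, which activates AKT, had -1.83 ± 0.81 with 0 of 5 sgRNAs positive. Of 17 brakes on mTOR, 8 were positive and the median was -0.01. STK11, the kinase LKB1, had 1.82 with 6 of 6 sgRNAs positive, while TSC1 and TSC2 had -0.61 and -0.70.

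Of 21 death-promoting genes of intrinsic apoptosis 16 had a positive difference (76.2%), and the list median was 0.49, from 0.35 in OE19 and 0.00 in N87. These guides were not rare with vehicle, at a median count of 138.8. After BAX, the largest values of BH3-only genes, which sense stress and engage BAX, were those of BCL2L11 (BIM) at 1.48, with 0.94 in OE19, and BMF at 1.25, with 1.58 in OE19. BAK1, the second pore-forming protein, had 1.48 from -1.12 in N87. On the survival side 6 of 11 genes were positive. BCL2L1 (BCL-XL) had -1.74 ± 1.34 with 0 of 6 sgRNAs positive, from -0.90 in OE19 and 0.70 in N87, and MCL1 had -0.89. BAX and its inhibitor BCL-XL thus had values of opposite sign, and neither difference passed.

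Around KEAP1, 13 of 16 genes of the Nrf2 pathway had a positive difference (81.2%, against 58.0% of all genes). KEAP1 is among the 13, and the list was chosen with earlier results of these data known. Over the list the median was 0.61, and only KEAP1 passed. The list median was 0.72 in replicate 1 and 0.15 in replicate 2. These guides had a vehicle count of 100.3, and with the filter on vehicle counts the excess over all genes went from 0.46 to 0.29. CUL3, its ligase partner, had 0.50 in OE19 and 1.45 in N87, a difference of -0.75 in the other direction. NFE2L2, which encodes Nrf2, had -0.40 in OE19 and -0.28 in N87. BACH1, a repressor of Nrf2 targets, had 1.91 ± 2.12, from -1.52 in N87. Of 19 TGF-beta receptors and SMADs, 9 were positive and the median was -0.09. TGFBR1 had 1.24 in OE19 and 0.20 in N87, beside SMAD3 and TGFBR2, while SMAD4, the shared partner of SMAD3, had 0.44 and 0.45, and SMAD2 had -0.51 as its difference.

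The SAGA coactivator, which acetylates histones and removes ubiquitin from them, had a list median of 0.43 in OE19 and 0.43 in N87, against 0.00 and -0.10 for all genes. Its members were spread in the difference, from SUPT20H (-1.73) and the ubiquitin protease USP22 (-1.45) to TRRAP (1.71), with 13 of 21 positive. The list lay 0.31 above all genes, and 0.01 with the filter on vehicle counts. TAF5L had 1.60 in OE19 and 1.51 in N87. Histone acetyltransferases and BET readers had a median difference of 1.01 with 9 of 12 positive, at a vehicle count of 106.8. EP300, a broad acetyltransferase, had 1.36 in OE19 and -0.37 in N87, a difference of 2.12 ± 1.91 with 6 of 6 sgRNAs positive and an adjusted p of 0.530. Of 31 Mediator subunits 24 were positive (77.4%) with a median of 0.44, at a vehicle count of 114.0. MED19 had 1.27 in OE19 and -0.25 in N87. In the Hippo pathway NF2 had 1.46 in OE19 and 1.49 in N87, and SAV1 had 1.01 and 0.99. WWTR1, the effector TAZ, had -0.05 and -1.62, with 6 of 6 sgRNAs positive in the difference.

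Lineage factors and the G1 cell cycle had some of the lowest values. KLF5, a factor of gut epithelium, had a difference of -2.30 ± 0.75 with 0 of 6 sgRNAs positive, from 0.03 in OE19 and 2.41 in N87. FOXA1, CDX1 and GATA4, which set foregut and gut identity, had -2.01, -1.62 and -1.42, each with 0 of 6 sgRNAs positive. Others of the list went the other way, with SOX9 at 1.67 and the epithelial factor GRHL2 at 1.54, and the list median of 19 genes was -0.07. KLF5 and FOXA1 had an adjusted p of 0.923. Of 23 G1 genes 7 were positive (30.4%) with a median of -0.37. CDKN1B, the inhibitor p27, had -1.26 with 0 of 6 sgRNAs positive and 1.58 in N87, CDK2 had 1.56 in N87, and SKP2, which degrades p27, had -1.87 in N87 and a difference of 2.07.

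A set of lists had values near 0 in OE19 and negative ones in N87. Of 15 genes of GPX4, selenoprotein synthesis and ferroptosis, 13 had a positive difference (86.7%), with a median of 0.59, and their guides had a vehicle count of 121.1, close to that of all sgRNAs. GPX4, the selenoenzyme that repairs lipid peroxides, had -0.05 in OE19 and -3.00 in N87. Its difference of 3.09 ± 0.85 was positive for 5 of 5 sgRNAs and ranked 13th of all genes, with an adjusted p of 0.750. EEFSEC and SEPSECS, which put selenocysteine into proteins, had 1.83 ± 0.93 and 1.24, and SLC7A11, the cystine importer, had 1.00. TXNRD1, another selenoenzyme, had 0.59. The list lay 0.43 above all genes, 0.44 with the filter on vehicle counts, and 0.38 to 0.60 without any single library.

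Around SYS1, 15 of 17 genes of trans-Golgi tethering had a positive difference (88.2%), with a median of 0.72, from 0.01 in OE19 and -0.91 in N87, and with 109.0 counts with vehicle. The list was drawn up around SYS1 with its result known, so it is not independent of it. ARFRP1, the partner of SYS1, had 1.07, and RAB6A, a Golgi GTPase, had 1.75. NAA30 and NAA38, subunits of the NatC acetyltransferase that modifies ARFRP1, had 2.63 ± 1.86 and 1.60, whereas their partner NAA35 had -0.88. The tethers VPS51, VPS52 and VPS53 had 1.15, 1.11 and 0.70. The list lay 0.57 above all genes, 0.60 with the vehicle filter and 0.52 to 0.91 without any single library.

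Glycolysis genes had 15 of 20 positive, with 0.44 as the list median and a vehicle count of 108.8. GAPDH had 0.84 in OE19 and -1.72 in N87, and TPI1 0.62 and -1.09. Of 22 receptor tyrosine kinases outside the EGFR family, whose guides were common with vehicle (157.3), 18 were positive (81.8%), with EPHA2 at 2.11 ± 1.72 and MET at 0.49.

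Lists of genes that all cells need also had positive medians, and their guides were rare with vehicle. The proteasome had 0.91 with 26 of 31 positive and 64.7 counts with vehicle, cytosolic aminoacyl-tRNA synthetases 0.93 with 16 of 20 and 83.6 counts, the vacuolar ATPase 0.98 with 13 of 17 and 89.1 counts, and ribosomal proteins 0.63 with 71 of 89 and 74.5 counts. DNA replication genes, as rare at 71.9 counts, had 0.13 with 18 of 33 positive. With the filter on vehicle counts the excess over all genes went from 0.76 to 0.42 for the proteasome, from 0.83 to 0.33 for the vacuolar ATPase (0.37 without OE19 vehicle replicate 2, 0.44 without N87 vehicle replicate 1 and 0.51 without N87 lapatinib replicate 1) and from 0.78 to 0.49 for the synthetases, and from 0.48 to 0.45 for ribosomal proteins. In OE19 these lists had medians of 0.24, -0.12, 0.12 and 0.21 for the proteasome, the vacuolar ATPase, the synthetases and the ribosomal proteins. ATP6V0C, the proton-carrying subunit of the vacuolar ATPase, had a difference of 3.29 ± 2.24. Olfactory receptor genes, silent in such cells, had 58.0% positive, as all genes had, and a median of 0.12, against 0.15.

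The remaining lists were close to all genes or mixed, and none of their members passed except SLC30A1 in OE19. Zinc transporters had a median difference of 0.15, iron genes 0.19, kinase chaperones 0.24, SWI/SNF 0.33, E-cadherin junctions 0.42, MYC and its partners 0.04, the Wnt pathway -0.01, ILK and integrins -0.03, the KCTD5 family -0.06 and microRNAs 0.13. Against these medians stand interquartile ranges that span 0 for every one of them but the kinase chaperones, at 0.08 to 0.63.

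Single sgRNAs gave the most extreme values, mostly from counts near 0. The 5 highest fitted differences were those of guides against hsa-mir-6851, MYC, SNF8, TMC2 and NR5A2. The TMC2 guide had 47 and 37 raw counts in the vehicle libraries and 10038 and 4812 under lapatinib in OE19, and 33 and 36, then 2 and 12 in N87. The SNF8 guide had 54 and 56, then 4211 and 2244 in OE19, and 105 and 100, then 3 and 10 in N87. Both guides had more counts with lapatinib in each OE19 replicate and fewer in each N87 replicate. The MYC guide had 15 and 22 and then 81 and 46 in OE19, and 31 and 38 and then 0 and 0 in N87. All 6 MYC sgRNAs had a positive difference, at 1.92 ± 3.79 in the median (adjusted p = 0.920 by rank aggregation of edgeR p-values). The gene medians of TMC2, SNF8 and NR5A2 were 1.00, 1.32 and 0.64, so most other guides to the same genes had far smaller values.

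At the other end, the 5 lowest fitted differences were those of guides against LYRM9, THRAP3, hsa-mir-548s, hsa-mir-548f-4 and ZNF331. The THRAP3 guide had 4 and 3 raw counts in the vehicle libraries and 250 and 175 under lapatinib in N87, and 4 and 5, then 0 and 0 in OE19. The LYRM9 guide had 7 and 1 and then 197 and 142 in N87, and 14 and 8 and then 0 and 0 in OE19. Of these 5 guides 4 had 0 counts in both OE19 lapatinib libraries, so their fitted values depend on the prior count and give no order, and no fold is printed. Both guides were rare with vehicle, high with lapatinib in N87 and absent from the OE19 lapatinib libraries. The gene medians of LYRM9 and THRAP3 were 0.32 and -0.73, with 4 and 3 of 6 sgRNAs positive.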

How the data were processed

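The values deposited are read counts per sgRNA, whole numbers that the authors made by trimming reads, checking them with FastQC (0.11.5 in the submitters' notes), mapping them to the library with Bowtie at fewer than 2 mismatches (Bowtie2 2.3.2 in the notes) and merging the counts; replicates were not pooled. MAGeCK (0.5.6), which they also used, was not run here.

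The 8 day 14 libraries were fitted with edgeR 4.0.16 in R 4.3.3 (glmQLFit and glmQLFTest, TMM factors, 4 groups, no replicate block, sgRNAs with at least 80 counts). The contrast was lapatinib minus vehicle in OE19 less the same in N87, and the effects in each line came from the same fit. Gene p-values came from robust rank aggregation of the one-sided p ranks below 0.05, against the exact null of uniform ranks, for genes with 2 or more tested sgRNAs. The Benjamini-Hochberg adjustment ran over all sgRNAs, or over all genes in each direction, with a threshold of 0.05. Normalized counts used median-of-ratios factors, and replicate values a pseudocount of 1. Alternatives were other scalings and filters, DESeq2 1.42.0, limma 3.58.1 on gene means, the replicate block and leaving out each library. Tables were made in Python 3.11.15 using pandas 2.3.3, scipy 1.17.1 and numpy 2.4.6. Reads carry no molecular identifiers, so counting error alone understates the spread.

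Replicate numbers were checked for pairing: across sgRNAs, the deviations of same-numbered lapatinib and vehicle libraries had r = 0.065 in N87 and 0.035 in OE19, and the block was kept as an alternative. Named genes are the genes past the threshold for the difference (or the 5 of lowest p where fewer pass), the genes the study names for the screen, list members past a threshold, genes past it in OE19, and the 5 most extreme sgRNAs each way; other list members were chosen after their values were seen. The members and the lists were chosen with earlier results of these data known. Coordinates are from GENCODE on GRCh37. A gene past the threshold in OE19 and another that the naming rule picks are not reported here, though both stayed in every test and count.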

Additional observations from a re-analysis of the deposited data

Results flagged for a closer look

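The effect of lapatinib differed between the lines by the interaction test for 4 genes, and the 2 libraries per group were too few to test for samples far from their group. KEAP1 had a median difference (OE19 minus N87) of 4.30 on the log2 scale, with 6 of 6 sgRNAs positive. SMAD3 had 2.46 with 5 of 6, SH2D3A 2.44 with 5 of 6 and SYS1 2.31 with 6 of 6. None of the 4 passed with the replicate block, and line and dose cannot be told apart.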

How the results depend on the processing

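The number of genes higher in OE19 was 4 as reported. It was 1 (KEAP1) with median-of-ratios size factors, 9 with DESeq2, 7 without the dispersion trend, 0 with the replicate block and 4062 with limma on gene means, where 3055 were lower. SH2D3A was not called with DESeq2 (adjusted p = 0.0567), total counts (0.0613) or TMM factors from the control guides (0.0624). With sgRNAs ranked by log2 difference 4 genes were higher, of which KEAP1 alone was among the 4 reported (SMAD3 0.775, SH2D3A 0.908, SYS1 1). The block ended the 4 calls of a difference and moved no other count by over 1.5 times: it left 24115 sgRNAs higher and 24419 lower and 13 genes enriched in OE19. Without any single library the number of genes higher in OE19 was 0 to 5 and that of sgRNAs higher was 15737 to 31793. OE19 genes enriched were then 9 to 16 and depleted 0 to 1, and N87 genes enriched 0 to 1 and depleted 0 to 4. The OE19 genes enriched were 25 with DESeq2. Limma called 1217 enriched and 264 depleted in OE19, and 4294 and 5822 in N87. In N87, 1 gene was enriched with total counts and 1 with DESeq2. With sgRNAs ranked by log2 difference, 2 genes were enriched and 2 depleted in N87, and 1 depleted in OE19. TMM factors from the control guides left 16509 sgRNAs lower and 36838 higher, so that 69.1% of the called sgRNAs were higher, against 50.2%. They moved the median of all genes from 0.15 to 0.54, while the medians of the lists relative to all genes hardly moved. With those factors KCTD5 had 0.14, LATS2 0.29 and TNFSF13B 0.05, against -0.24, -0.09 and -0.33. Limma gave 0.04 for LATS2 and -0.41 for TADA2B. Without any single library KCTD5 was -0.89 to 0.06, LATS2 -0.37 to 0.23 and MED12 -0.13 to 0.40. The cause was not tested for any of these. Pseudocounts of 0.5 and 5 moved none of the named genes by more than the spread of both replicates. With 2 replicates, and 57 median counts in the shallowest library, small differences and rare guides were the least certain.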

Other observations

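Of the 28 genes with a median log2 fold change under -1 in OE19, 24 are microRNAs, most of which have fewer sgRNAs in the library than protein-coding genes have, and the 4 others are SRC, OTUD5, TNRC6A and IL1RAP. Of the 90 genes over 1 in OE19, 14 are microRNAs. In N87, 327 of 2516 genes under -1 and 151 of 1031 genes over 1 are microRNAs. TNRC6A, a partner of the Argonaute proteins in silencing by microRNAs, was under -1 in both lines. A median over 1 in OE19 with one under -1 in N87 was found for 18 genes, among them MIEN1, PTMA and MARS2, and the reverse for 3 microRNAs. These genes were picked after their values were seen.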
